A study of Mus musculus with 10 samples.

Results

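The genes described here are 10 mouse genes of the cohesin complex and its meiotic protector: the meiotic subunits Rec8, Rad21l, Stag3 and Smc1b, their mitotic counterparts Rad21, Stag1, Stag2 and Smc1a, the shared subunit Smc3, and the shugoshin gene Sgo2a. They were chosen by name, not by a rule on their values, but with earlier results of these data known. All 10 were found among the 28125 genes of the scRNA-seq matrix and the 30670 genes of the scATAC-seq matrix.

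Both assays were run on nuclei of mouse testis, with the RNA and the open chromatin of a nucleus captured together. The germ cells came from wild-type C57BL/6J mice at 11, 17 and 25 days post-partum (dpp), from Cre/+ mice at 8 weeks of age, which carry a Cre gene at Stra8, and from Nfya-CKO mice at 8 weeks of age. The Nfya-CKO mice combine loxP-flanked Nfya with Stra8-Cre, so that exons 5–6 of Nfya, which encodes the DNA-binding subunit of the CCAAT-binding factor NF-Y, are deleted only in germ cells that have expressed Stra8-Cre. Each of the 5 conditions had 1 library per assay, and the study's authors deposited 1 value per gene for each of 13 cell populations pooled over the libraries. There is thus no replicate and no test between conditions, and the intervals given below cover counting error only.

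The 9 germ cell populations were undifferentiated spermatogonia (undiff. SpG, 1292 cells), differentiating spermatogonia (diff. SpG, 927), preleptotene spermatocytes (pL, 1761), early leptotene to zygotene spermatocytes (eL/L/Z, 5705), leptotene to early pachytene spermatocytes (L/Z/eP, 8107), middle and late pachytene spermatocytes (mP/lP, 5055), diplotene spermatocytes (D, 4145), round spermatids (RS, 7325) and elongating spermatids (ES, 1195). The others were spermatogonia (491) from the library labelled Nfya-CKO, called Nfya-CKO SpG, Sertoli cells (3265), a second somatic population of which 78.8% came from the library labelled Nfya-CKO (5883), and an unknown population (99). Median depth ran from 1525 UMIs (unique molecular indices) per cell in the second somatic population to 18361 in Nfya-CKO SpG, and was 9290 in undiff. SpG, 6969 in mP/lP and 1633 in L/Z/eP.

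Several populations were nearly one library: 84.5% of diff. SpG and 99.6% of ES came from Cre/+, and 93.5% of L/Z/eP came from 25 dpp, so stage, age and library cannot be told apart there. Cell barcodes were also shared between libraries. The Cre/+ and Nfya-CKO libraries shared 3813 barcodes, the 3 wild-type libraries shared 621 to 853 per pair, and the other pairs shared at most 19. Of the 3813, 327 were in the same population in both libraries. Cells with a shared barcode made up 3.30% of L/Z/eP, 32.5% of undiff. SpG, 35.6% of Nfya-CKO SpG, 49.1% of diff. SpG and 59.7% of ES. Their share was highest in the second somatic population, at 70.1%, and was 74.0% in the Nfya-CKO library. The pooled columns could not be recomputed without these cells, and their part in the results was not tested.

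The marker genes of most populations were highest where the names place them. Zbtb16 was highest in undiff. SpG (8.74 UMIs per 10000), Stra8 in pL (4.86), Piwil1 in mP/lP (11.4), Acrv1 in RS (7.19) and Prm1 in ES (40.8). Diff. SpG had less Kit (1.56) than pL (2.09) and carried Prm1 at 3.94, a spermatid transcript that pL had at 0.00525. Nfya-CKO SpG had Zbtb16 at 4.15 and Gfra1 at 1.20, and also Insl3 at 39.8, a Leydig cell transcript at 0.0640 in undiff. SpG and at 177 in the second somatic population. Nfya RNA itself was not lower in them (1.11 against 0.456 UMIs per 10000 in undiff. SpG), and the deposited value covers the whole gene, so it does not show whether exons 5–6 were lost.

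Cohesin is a ring of a pair of SMC proteins closed by a kleisin, to which a STAG protein binds. It holds sister chromatids together after replication and forms chromatin loops. In mitosis the ring holds SMC1A, SMC3, the kleisin RAD21 and STAG1 or STAG2. In meiosis SMC1B, the kleisins REC8 and RAD21L and STAG3 replace their counterparts along the chromosome axis, on which homologues synapse and recombine. Shugoshin SGO2 guards centromeric REC8 from separase at the first division, so that sister chromatids stay joined until the second.

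NF-Y binds the sequence CCAAT, and 8 of the 10 genes had an entry in the RefSeq promoter table (GRCm38.p6), the exceptions being Rad21 and Stag2. CCAAT was searched on both strands of the 250 bases before each annotated start and was found in 6 of these 8 genes, 8 times in all. Of the 32851 windows of the table, 33.8% held it, a share of windows rather than of genes. Sgo2a has a second window, with 0 matches. The 8 sites are shown with their surroundings, 5′ to 3′ on the strand of the gene. They are matches to the sequence alone, and binding of NF-Y at them was not tested. Capitals mark CCAAT, or ATTGG where it lies on the opposite strand.

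Rec8, 226 bases before the start, chr14:55617928-55617957, plus strand: gaacgagaggccATTGGccagaacacctca

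Rec8, 177 bases before the start, chr14:55617977-55618006, plus strand: agaattctcgtgATTGGctggcgactattc

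Rec8, 81 bases before the start, chr14:55618073-55618102, plus strand: gcgcggcttctcATTGGctgtcggtggtac

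Stag3, 239 bases before the start, chr5:138280259-138280288, plus strand: caaacgctcagCCAATggaaggggacatag

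Smc1b, 147 bases before the start, chr15:85132087-85132116, minus strand: cggagcagggatCCAATtccccgggcaacg

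Stag1, 78 bases before the start, chr9:100643358-100643387, plus strand: ccgcggctcgccATTGGccgagcggagcag

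Smc1a, 19 bases before the start, chrX:152016397-152016426, plus strand: caggaaatcgtgATTGGcttggacttatta

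Sgo2a, 194 bases before the start, chr1:57985134-57985163, plus strand: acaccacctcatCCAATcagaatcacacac

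Rec8 had 3 sites and the other 5 genes 1 each. The sites of Stag3, Stag1 and Smc1b and the one nearest the start of Rec8 overlap annotated exons of some gene, the others do not. The Smc1b site lies outside the Smc1b locus and within its neighbour Ribc2 (chr15:85132078-85144570), on the opposite strand. Smc3, the subunit that both rings use, and Rad21l had no CCAAT in this window. The starts used by the table for Rad21l, Stag3, Stag1 and Rec8 lie inside their loci, so the sequence before the outer ends of these loci was not searched in full. The Smc3 window (chr19:53600146-53600395, plus strand) is given whole, with the 1 match to TCCCGC, the core of the E2F6 motif, in capitals as it reads on this strand.

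Smc3: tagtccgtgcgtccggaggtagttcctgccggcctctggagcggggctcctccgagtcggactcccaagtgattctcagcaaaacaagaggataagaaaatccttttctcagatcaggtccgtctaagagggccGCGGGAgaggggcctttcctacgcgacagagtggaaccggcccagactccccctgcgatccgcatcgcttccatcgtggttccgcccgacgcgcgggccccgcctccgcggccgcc

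TCCCGC was also found once each in the windows of Rec8, Smc1b, Stag1 and the second start of Sgo2a, against 16.9% of all windows. The E-box CACGTG was found in Stag3 alone of the 8 genes, against 6.02% of all windows, and the motif CNCCTCAG, bound by STRA8, was found in none of the 8, against 6.42%. None of these matches overlapped another.

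RNA levels are given as the mean number of UMIs per 10000 UMIs of a cell, so a value is a share of the RNA captured, and fewer molecules of a gene cannot be told apart from more RNA of other genes. A difference between populations is the log2 ratio of (value + 0.1), and a gene was counted as higher or lower at a 2-fold difference if its mean over both populations was at least 0.05. The range after a value is its 95% counting interval. A value given as mean UMIs per cell, or per cell, is this level times the mean depth of the population's cells, divided by 10000. It approximates the mean count of a cell, and departs from it where the share of a gene varies with depth.

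Rad21, the kleisin of the mitotic ring, was highest in undiff. SpG (2.94, 2.83 to 3.06), and measured 1.98 in diff. SpG, 2.39 in pL, 1.66 in eL/L/Z, 0.707 in L/Z/eP, 0.478 in mP/lP, 0.613 in D, 0.595 in RS and 0.725 in ES. The intervals of the first 4 populations did not overlap one another or those of the later 5, whereas ES, L/Z/eP, D and RS each overlapped the next in that order. Against undiff. SpG, Rad21 was 3.77-fold lower in L/Z/eP and 5.26-fold lower in mP/lP on the (value + 0.1) scale.

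Rec8, the kleisin cleaved by separase at the meiotic divisions, did not peak in spermatocytes. It was at 0.140 (0.117 to 0.167) in undiff. SpG, 0.457 in diff. SpG, 0.298 in pL, 0.289 in eL/L/Z, 0.246 in L/Z/eP, 0.138 (0.125 to 0.152) in mP/lP, 0.390 in D, 1.11 (1.06 to 1.17) in RS and 0.527 in ES. The RS level was 8.06 times the mP/lP level and lay above all other populations per 10000 UMIs. As mean UMIs per cell, Rec8 was at 0.325 in RS, 0.352 in diff. SpG, 0.150 in undiff. SpG and 0.131 in mP/lP, so RS was not the highest. Per 10000 UMIs, undiff. SpG and mP/lP, at the bottom of the order, overlapped. The levels of pL, eL/L/Z and L/Z/eP formed a plateau in which neighbours overlapped. Rec8 was the only member at least 2-fold higher in diff. SpG than in undiff. SpG, and 0 members were lower, where 10.2% of 14264 genes were higher and 7.05% lower. As mean UMIs per cell, the log2 difference of Rec8 was 0.86, under 2-fold. Diff. SpG carried the spermatid transcripts Prm1 (3.94) and Acrv1 (1.18), against 0.155 and 0.157 in undiff. SpG, and the part of this in the Rec8 value was not tested. Rec8 ends 5 bases from Ipo4, which lies on the opposite strand, and strand-specific counting is not stated.

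Rad21l, a kleisin found in early meiotic prophase, was at 0.0798 in undiff. SpG, 0.0898 in diff. SpG, 0.109 in pL, 0.116 (0.0945 to 0.140) in eL/L/Z, 0.0766 in L/Z/eP, 0.0701 in D, 0.0343 (0.0280 to 0.0416) in mP/lP, 0.0270 in ES and 0.0229 in RS. Ordered by level, the 6 highest populations each overlapped the next, and eL/L/Z and L/Z/eP, which are not next to each other in that order, did not overlap. D was the last population whose interval lay above mP/lP. On the (value + 0.1) scale Rad21l was 1.34-fold lower in mP/lP than in undiff. SpG, a value set by the pseudocount, and with a pseudocount of 0.01 the log2 difference was -1.02.

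**Figure D1:**
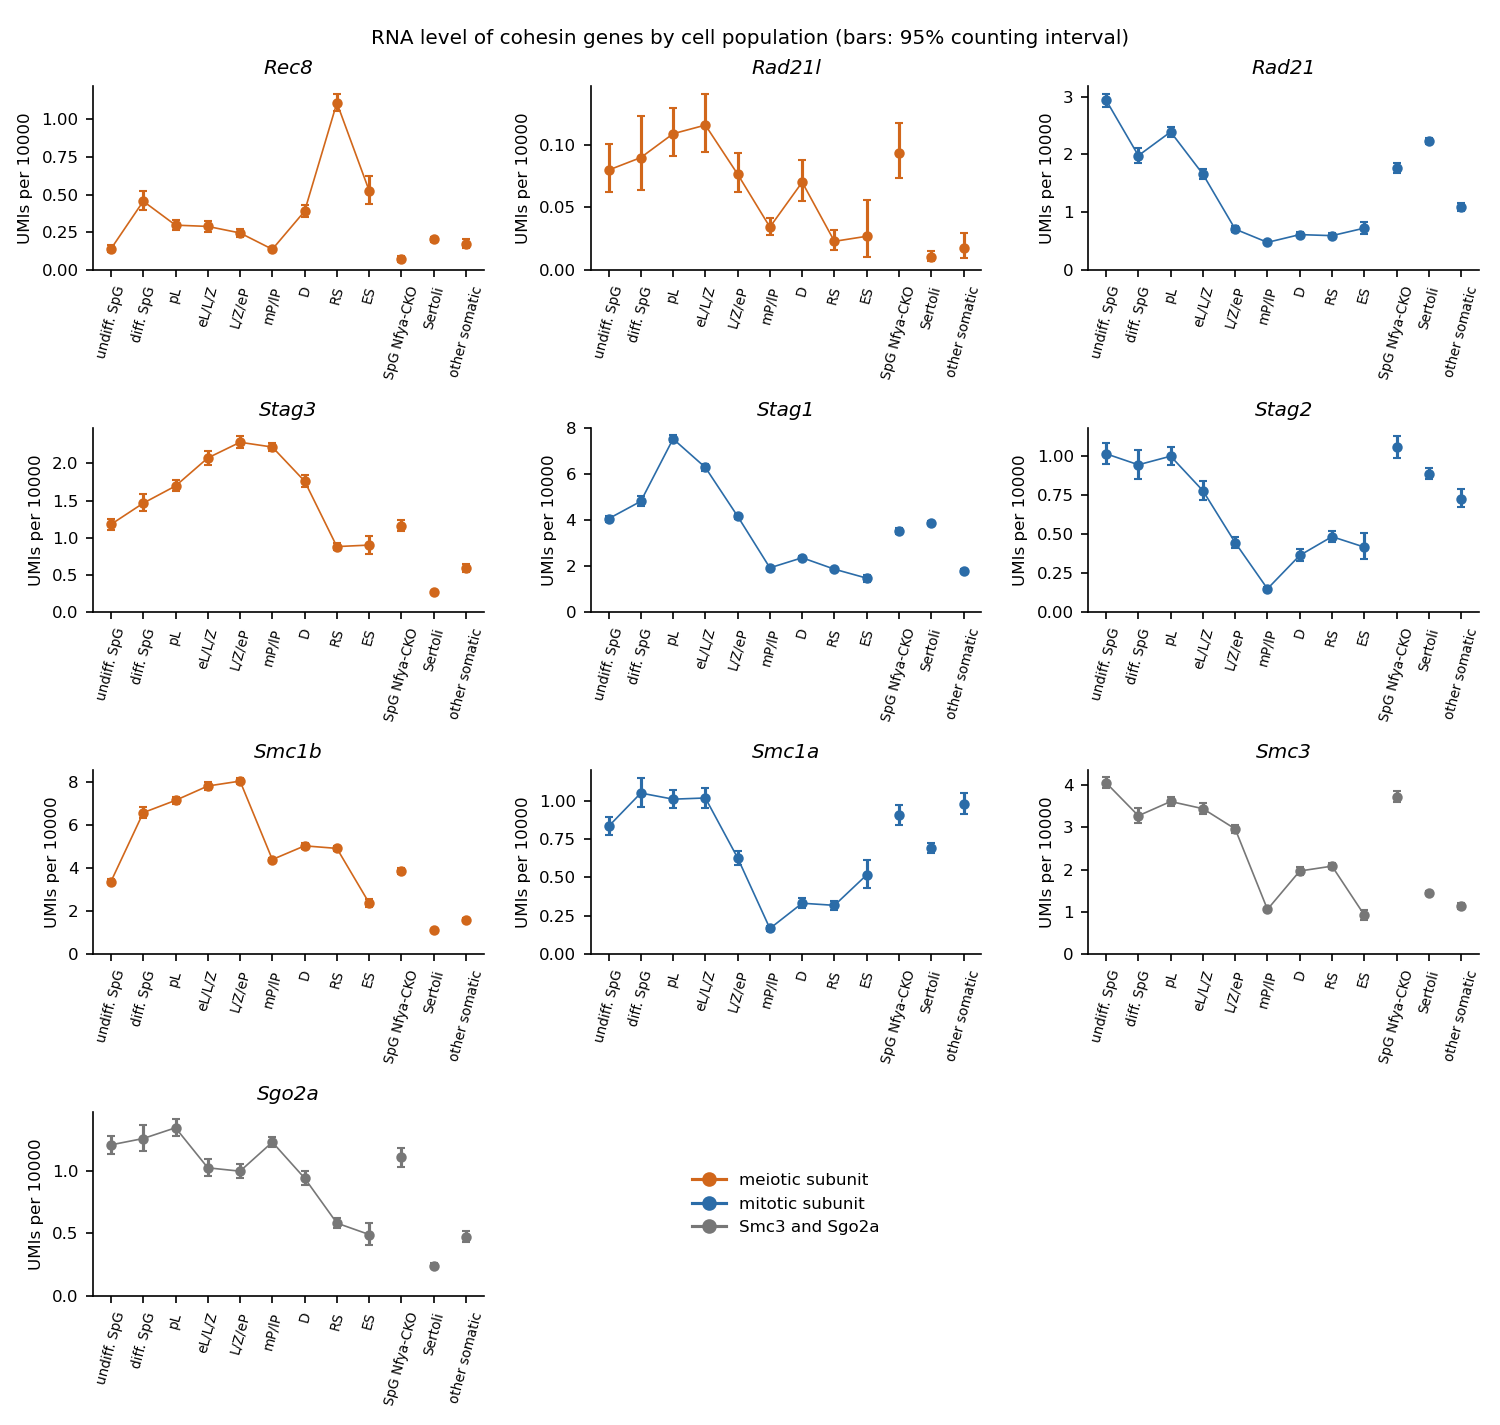
RNA level of each gene (y axis, mean UMIs per 10000) in the 9 germ cell populations in developmental order, Nfya-CKO SpG, Sertoli cells and the second somatic population, with bars for the 95% counting interval. Mitotic subunits (blue) and Smc3 were at or near their lowest level in mP/lP, Stag3 was highest from eL/L/Z to mP/lP, and Rec8 was highest in RS at 1.11.

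Stag3, the meiotic STAG protein, was highest in prophase spermatocytes. It was at 1.18 in undiff. SpG, 1.47 in diff. SpG, 1.70 in pL, 2.07 in the eL/L/Z cells, 2.29 (2.20 to 2.37) in L/Z/eP, 2.22 (2.17 to 2.28) in mP/lP, 1.76 in D, 0.881 in RS and 0.901 in ES. Its interval in mP/lP overlapped those of eL/L/Z and L/Z/eP, which did not overlap each other, and these 3 populations stood above all others. It was 1.81-fold higher in mP/lP than in undiff. SpG, and it was the only member above its preleptotene level there, by 0.37 on the log2 scale.

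Stag1, a mitotic STAG gene, peaked in pL at 7.54 (7.38 to 7.69). It was at 4.06 in undiff. SpG, 4.82 in diff. SpG, 6.29 in eL/L/Z, 4.17 in L/Z/eP, 1.92 in mP/lP, 2.36 in D, 1.86 in RS and 1.47 in ES. The values of L/Z/eP and undiff. SpG overlapped, as did those of mP/lP and RS, while pL and eL/L/Z stood apart from each other and from the rest. Stag2, the X-linked STAG gene, had no peak before meiosis: undiff. SpG (1.01), pL (0.998) and diff. SpG (0.943) overlapped, followed by 0.777 in eL/L/Z, 0.444 in L/Z/eP and then 0.149 (0.135 to 0.163) in mP/lP. After pachytene Stag2 was at 0.362 in D, 0.483 in RS and 0.416 in ES, all above mP/lP.

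Smc1b, the meiotic SMC1, was already at 3.38 in undiff. SpG. It was at 6.59 in diff. SpG, 7.17 in pL and 7.83 in eL/L/Z, then 8.06 (7.91 to 8.22) in L/Z/eP, 4.41 in mP/lP, 5.04 in D, 4.92 in RS and 2.38 in ES. Only eL/L/Z and L/Z/eP, and D and RS, overlapped among neighbours in this order. Smc1b was the 1 meiotic subunit at least 2-fold higher in eL/L/Z and in L/Z/eP than in undiff. SpG, by 1.19 and 1.23 on the log2 scale. Mean depth was 2038 UMIs in L/Z/eP and 10667 in undiff. SpG. As mean UMIs per cell, the L/Z/eP difference of Smc1b had the opposite sign (-1.09), as did those of Stag3 (-1.26) and Rec8 (-0.73). In eL/L/Z, Smc1b was at 2.68 UMIs per cell against 3.61 in undiff. SpG, also the opposite direction. Its start lies 114 bases from that of Ribc2 on the opposite strand.

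Smc1a, the X-linked mitotic SMC1, was at 0.833 in undiff. SpG, 1.05 in diff. SpG, 1.01 in pL, 1.02 in eL/L/Z, 0.628 in L/Z/eP, 0.167 (0.152 to 0.182) in mP/lP, 0.332 in D, 0.318 in RS and 0.517 in ES. The 3 populations from diff. SpG to eL/L/Z overlapped, and mP/lP lay below all others. Smc3, which pairs with both SMC1 proteins, had a course like that of the mitotic subunits. It was at 4.06 in undiff. SpG, 3.28 in diff. SpG, 3.61 in pL, 3.44 in eL/L/Z, 2.96 in L/Z/eP, 1.06 in mP/lP, 1.97 in D, 2.08 in RS and 0.925 in ES, with mP/lP and ES overlapping at the bottom. Smc3 was 3.59-fold lower in mP/lP than in undiff. SpG.

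Sgo2a, which encodes the shugoshin of meiosis, varied less than all other members except Stag3, with 2.74 times between its highest and lowest level. It was at 1.21 in undiff. SpG, 1.26 in diff. SpG, 1.35 in pL, 1.03 in eL/L/Z, 0.998 in L/Z/eP, 1.23 in mP/lP, 0.943 in D, 0.583 in RS and 0.492 in ES. The spermatid levels were below all others, and pL, diff. SpG, mP/lP and undiff. SpG each overlapped the next in that order. Kctd18 overlaps 22986 bases of the Sgo2a locus on the opposite strand, and reads of either gene there cannot be told apart without strand. Sgo2b was highest in RS, at 0.00441.

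The meiotic and mitotic subunits were also counted as sets. In L/Z/eP against undiff. SpG, 1 of 4 meiotic subunits (Smc1b) was at least 2-fold higher and 0 lower, and 2 of 4 mitotic subunits (Rad21 and Stag2) were lower and 0 higher, where 12.8% of 14089 genes were higher and 15.2% lower. The median log2 difference was 0.71 for the meiotic and -0.70 for the mitotic subunits, against -0.07 for all genes. In mP/lP against undiff. SpG, 4 of 4 mitotic subunits and Smc3 were lower and 0 of 4 meiotic subunits were higher or lower, where 15.4% of 13945 genes were higher and 23.4% lower. The medians there were 0.18 and -1.98, against -0.23 for all genes. In eL/L/Z against undiff. SpG, only Smc1b of the 10 genes was counted, as higher, where 4.70% of 13644 genes were higher and 5.33% lower.

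Per 10000 UMIs, the step from L/Z/eP to mP/lP held most of the lower mitotic levels: Stag1, Stag2, Smc1a and Smc3 were at least 2-fold lower and 0 members were higher, where 1.57% of 13394 genes were higher and 4.03% lower. The log2 differences at this step were -1.08 for Stag1, -1.13 for Stag2, -1.45 for Smc1a and -1.40 for Smc3. As mean UMIs per cell, at mean depths of 2038 UMIs for L/Z/eP cells and 9510 for mP/lP cells, all 4 had the opposite direction (Stag1 0.850 and 1.83, Stag2 0.0906 and 0.141, Smc1a 0.128 and 0.159, Smc3 0.604 and 1.01). Rad21 had its largest step earlier, between eL/L/Z and L/Z/eP (-1.12), and differed by -0.48 from there to mP/lP. In RS against undiff. SpG, Rec8 was the 1 member at least 2-fold higher (0 as mean UMIs per cell), and Rad21, Stag1 and Smc1a were lower, where 26.0% of 15653 genes were higher and 26.5% lower, shares that the members' counts lay near or below.

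Scaling matters for these differences. Rescaled by the median ratio over 8954 genes, all log2 differences from undiff. SpG move up by 0.14 in L/Z/eP, 0.31 in mP/lP and 0.81 in RS at most. In mP/lP the rescaled values were -2.11 for Rad21, -0.74 for Stag1, -1.92 for Stag2, -1.56 for Smc1a, -1.55 for Smc3 and 1.15 for Stag3, so the direction held for these 6 genes and Stag1 no longer differed 2-fold. In RS the rescaled value of Stag3 changed sign, from -0.38 to 0.36, and those of Stag2 and Smc3 came to -0.23 and -0.15.

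The ratio of a meiotic subunit to its mitotic counterpart needs no scaling between populations, up to the pseudocount of 0.1. All 5 ratios were higher in L/Z/eP than in undiff. SpG. Rec8 to Rad21 was higher by 2.44 (2.22 to 2.65) on the log2 scale, Rad21l to Rad21 by 1.89, Stag3 to Stag2 by 1.93, Smc1b to Smc1a by 1.59 and Stag3 to Stag1 by 0.86. In mP/lP the changes were 2.38, 1.97, 3.02, 2.18 and 1.90 in the same order, the highest value of Stag3 to Stag1, Stag3 to Stag2 and Smc1b to Smc1a in any population. Rec8 to Rad21 was already higher by 1.76 in diff. SpG, above its eL/L/Z value of 1.48. In pL, Rec8 to Rad21 had changed by 1.01 and Smc1b to Smc1a by 0.81, while Stag3 to Stag1 was lower by 0.39, the only negative value among the 9 germ cell populations.

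The ratios parted after pachytene. Rec8 to Rad21 went on to 3.12 in D and 4.46 in RS, whereas Stag3 to Stag1 came back to 0.70 and Stag3 to Stag2 to 0.55 in RS. Smc1b to Smc1a was at 1.69 in RS and 0.11 in ES, where its interval included 0. For Rad21l, whose level is close to the pseudocount, the ratio depends on it: the mP/lP value was 1.97 with 0.1, 1.57 with 0.01 and 1.70 with 0.5.

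**Figure D2:**
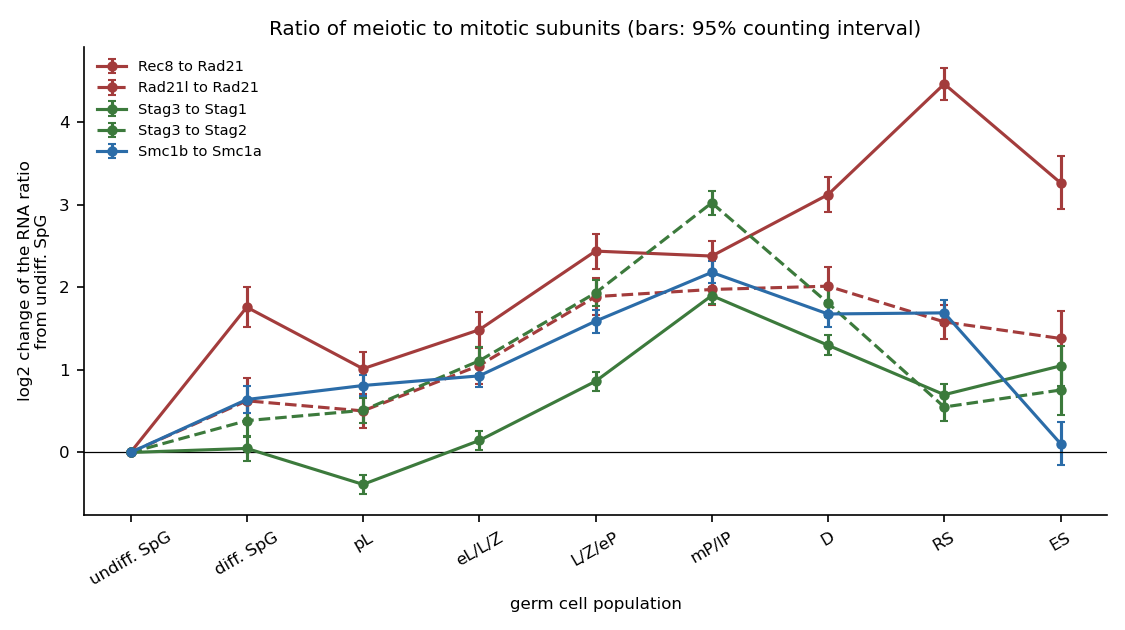
Log2 change, from undiff. SpG, of the RNA ratio of a meiotic subunit to its mitotic counterpart (y axis) over the 9 germ cell populations (x axis), with bars for the 95% counting interval. All 5 ratios lay above 0 from eL/L/Z to RS, and Rec8 to Rad21 reached 4.46 in RS.

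Levels of different genes were compared only per length. Per kilobase of exons, the meiotic kleisins Rec8 and Rad21l together made up 12.1% of the kleisin RNA in undiff. SpG, 43.7% in L/Z/eP, 37.4% in mP/lP and 73.6% in RS. Stag3 made up 30.6% of the STAG RNA in undiff. SpG, 49.4% in L/Z/eP and as much as 68.1% in mP/lP. Smc1b made up 85.3% of the SMC1 RNA in undiff. SpG, 94.8% in L/Z/eP, then 97.4% in mP/lP. Its share was also 69.4% in Sertoli cells and 69.5% in the second somatic population. Sertoli cells and the second somatic population also held the germ cell transcript Sycp1, at RNA levels of 1.64 and 4.29. The part of background RNA in these somatic shares was not tested. Nuclei hold unspliced RNA, and per kilobase of locus the shares in undiff. SpG were 18.8% for the kleisins, 60.7% for Stag3 and 73.3% for Smc1b. In the same order they were 61.3%, 79.2% and 89.7% in L/Z/eP, and 56.3%, 89.6% and 94.7% in mP/lP. Per kilobase of locus, Smc1b made up 51.8% in Sertoli cells and 52.0% in the second somatic population. In both scalings each of the 3 shares was higher in mP/lP than in undiff. SpG. The Stag3 locus used for its length begins at chr5:138272514 in RefSeq and contains Gpc2, on the opposite strand. GENCODE places Gpc2 235 bases outside Stag3, so the locus shares of Stag3 depend on the annotation.

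Smc1a and Stag2 lie on the X chromosome (chrX:152016428-152061973 and chrX:42149297-42277186, GRCm38), which is silenced in pachytene spermatocytes. In mP/lP against pL, 5 of the 10 members were at least 2-fold lower and 0 higher, where 18.1% of 13371 genes were higher and 22.0% lower. The log2 difference was -2.14 for Stag2 and -2.06 for Smc1a, against a median of -1.27 over 420 X-linked genes, of which 61.9% were at least 2-fold lower. Stag2 was at percentile 14.5 and Smc1a at percentile 17.1 of the X-linked genes. The other 3 lower members are autosomal: Rad21 (chr15:51962604-51993538) by -2.11, Stag1 (chr9:100597709-100958544) by -1.92 and Smc3 (chr19:53600396-53645831) by -1.68. Among 12580 autosomal genes, with a median of -0.22 and 20.7% at least 2-fold lower, these were at percentiles 2.90, 4.48 and 7.03.

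In RS against mP/lP the log2 difference was 1.23 for Stag2 and 0.65 for Smc1a, against a median of 0.50 for 404 X-linked genes and -0.12 for 13746 autosomal genes. Of the autosomal members, Smc3 was at 0.91 and Rad21 at 0.26, while Stag1 was at -0.04. Stag3 was at -1.24 and Sgo2a at -0.96, percentiles 3.99 and 10.9 of the autosomal genes, and Rec8 at 2.35, percentile 94.9. As mean UMIs per cell, Stag2 was at 0.141 in both populations. Smc1a (0.0931 against 0.159), Smc3 (0.610 against 1.01) and Rad21 (0.174 against 0.455) were then lower in RS, and Rec8 was higher (0.325 against 0.131).

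**Figure D3:**
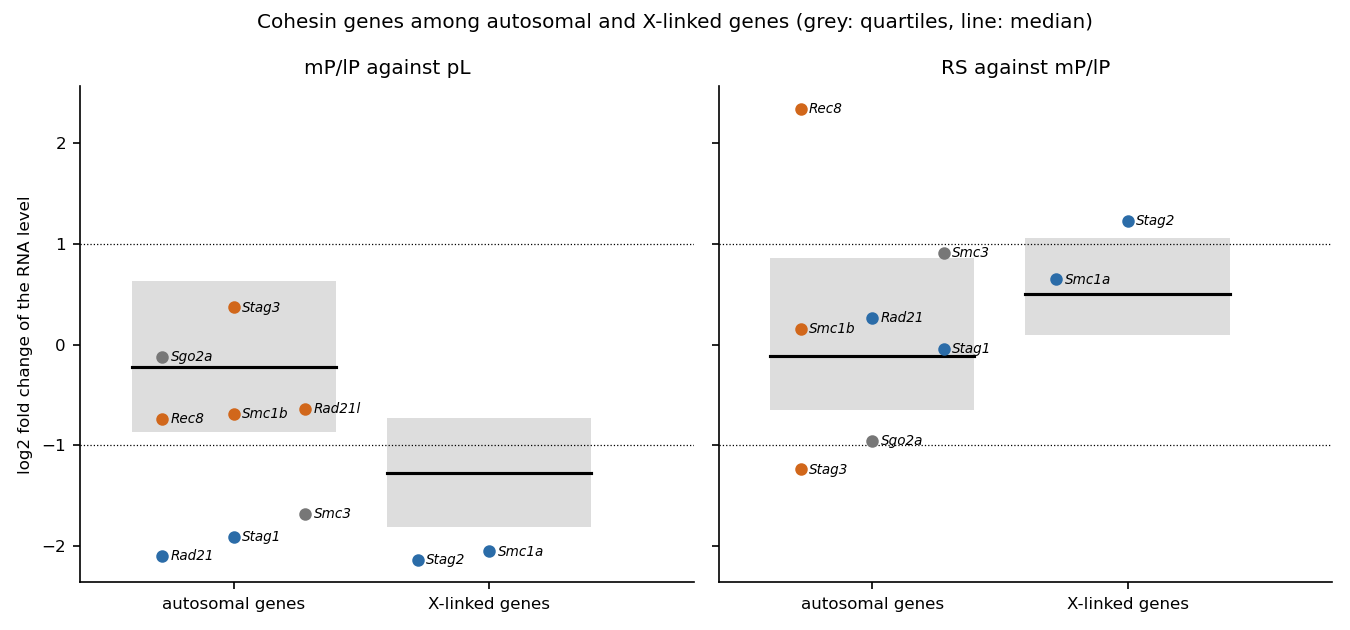
Log2 difference of the RNA level (y axis) in mP/lP against pL (left) and in RS against mP/lP (right) for the members. The quartiles (grey) and median (line) are of the autosomal and X-linked genes that passed the filter, including genes at low levels. Points are orange for meiotic subunits, blue for mitotic subunits and grey for Smc3 and Sgo2a. Smc1a and Stag2 lay below the lower X-linked quartile in the left panel, at -2.06 and -2.14, and Rad21, Stag1 and Smc3 lay below the lower autosomal quartile.

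Nfya-CKO SpG were compared with undiff. SpG, to ask whether cohesin RNA and chromatin differ in spermatogonia in which Nfya was targeted. Of undiff. SpG, 50% came from 11 dpp mice, so genotype, age and library cannot be told apart. In RNA, 0 of 10 members were at least 2-fold higher and 0 lower, where 4.76% of 13954 genes were higher and 3.40% lower, a count near the background. Their median log2 difference was -0.07, against 0.04 for all genes. Rec8 was at 0.0740 (0.0562 to 0.0956) against 0.140 (0.117 to 0.167), a log2 difference of -0.47 (-0.68 to -0.25). With pseudocounts of 0.01 and 0.5 it was -0.84 and -0.16, and as mean UMIs per cell -0.015. Rad21 was at 1.77 (1.67 to 1.86) against 2.94 (2.83 to 3.06), a log2 difference of -0.70 (-0.79 to -0.61), the furthest of the 10 with this pseudocount. As mean UMIs per cell, with a mean depth of 19916 UMIs against 10667, the difference of Rad21 was 0.16. The Leydig cell transcripts Insl3 (39.8 against 0.0640) and Cyp17a1 (7.39 against 0.0207) were higher in Nfya-CKO SpG, and their part in these values was not tested.

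The other 8 genes lay between -0.21 (Stag1) and 0.18 (Smc1b) on the log2 scale. Stag3 was at 1.16 against 1.18, Stag2 at 1.05 against 1.01, Smc1a at 0.905 against 0.833 and Rad21l at 0.0935 against 0.0798, with intervals that overlapped in all 4. Smc1b was at 3.86 against 3.38, Stag1 at 3.51 against 4.06, Smc3 at 3.73 against 4.06 and Sgo2a at 1.11 against 1.21. The intervals of the first 3 of these did not overlap, and those of Sgo2a did. As mean UMIs per cell, the log2 difference was 1.07 for Smc1b, and those of Stag1 (0.68), Smc3 (0.77) and Sgo2a (0.73) had the opposite direction.

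The differences depended on the control population. That of Rad21 was -0.42 against pL and -0.16 against diff. SpG, nearer to 0 than against undiff. SpG, whereas that of Rec8 lay further from 0. Against pL, Rec8 (-1.19) and Stag1 (-1.08) were at least 2-fold lower and 0 members were higher, where 11.0% of 13495 genes were higher and 5.37% lower. As mean UMIs per cell, Rec8 was at 0.147 against 0.271 and Stag1 at 6.98 against 6.85, so neither was 2-fold lower. Against diff. SpG, Rec8 (-1.68) was lower and 0 were higher, where 7.44% of 14740 genes were higher and 10.9% lower. As mean UMIs per cell, Rec8 was at 0.147 against 0.352, not 2-fold lower with the pseudocount of 0.1. Diff. SpG is mostly of the Cre/+ library, the only control of the same age, and holds the spermatid transcripts given above.

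The ATAC signal at the same genes was counted at a lower threshold than the RNA, so the counts of the assays are not comparable. At a fold of 1.5 in each assay, 1 of the 10 members was lower and 0 were higher. The ATAC signal is given per 1000000 of the signal of a population over all genes. The authors' methods define promoter accessibility as the mean coverage within 200 bases of a start, but do not say whether the deposited matrix holds that measure, so the signal was compared only between populations for the same gene. A gene was counted as lower at a ratio of 0.8 or less, and as higher at the inverse of that or more, if its mean over both populations was at least 5. In Nfya-CKO SpG, 5 of 10 members were lower than in undiff. SpG and 2 higher, where 26.0% of 18748 genes were lower and 15.4% higher. The median ratio was 0.787 for the members and 0.925 for all genes.

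Smc1a had the lowest ratio, with 21.2 against 33.6 per 1000000 (0.629), at percentile 3.68 of all genes. Smc1b followed with 18.4 against 27.1 (0.680, percentile 7.85), Stag3 with 42.5 against 61.4 (0.692, percentile 9.06), Smc3 with 37.2 against 53.2 (0.699, percentile 9.72) and Rad21 with 30.3 against 41.5 (0.728, percentile 13.5). In each of the meiotic and mitotic sets, 2 of 4 were lower and 1 of 4 higher. The 2 higher genes were Stag1, with 24.8 against 17.1 (1.46, percentile 92.7), and Rad21l, with 23.2 against 17.3 (1.34, percentile 88.9).

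The other 3 genes had ratios of 0.857 (Stag2), 0.851 (Sgo2a) and 0.882 (Rec8). Of the 6 genes with CCAAT in the sequences shown above, 3 (Smc1a, Smc1b and Stag3) were among the 5 with less signal and Stag1 was among the 2 with more, while Rec8, with 3 sites, had a ratio of 0.882. Smc3, with no CCAAT in its window, had 0.699. These windows need not be the regions whose signal was counted.

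**Figure D4:**
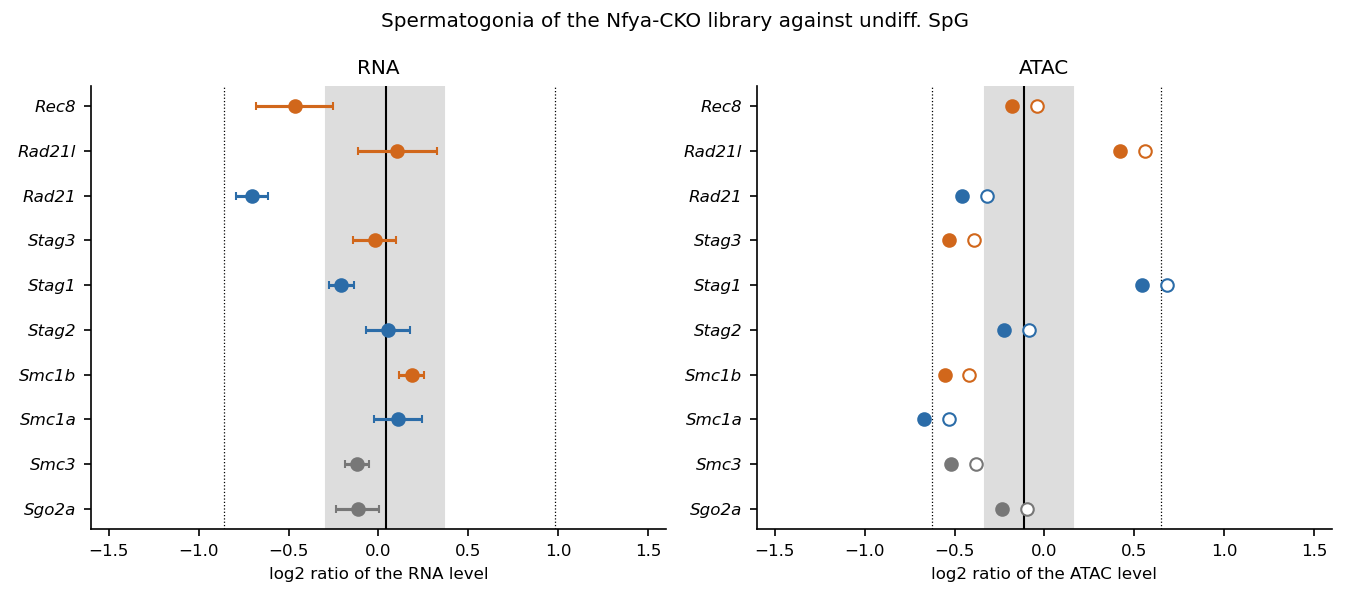
Log2 ratio of Nfya-CKO SpG to undiff. SpG for RNA (left, with 95% counting intervals) and ATAC (right, filled points scaled over all genes, open points over nuclear genes) for the 10 members in orange (meiotic), blue (mitotic) and grey (Smc3 and Sgo2a). The grey band spans the quartiles of all genes, the line their median and the dotted lines the 5th and 95th percentiles, in the right panel on the scaling over all genes. The RNA points of 8 genes lay between -0.21 and 0.18, and the filled ATAC points of Smc1a, Smc1b, Stag3, Smc3 and Rad21 lay below the quartile band.

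Other measures moved with this ATAC comparison. The mean enrichment of fragments at transcription start sites was 7.99 in the 470 ATAC nuclei of Nfya-CKO SpG and 12.7 in the 1230 of undiff. SpG, and mitochondrial genes held 46.0% and 40.6% of the signal. Their part in the ratios was not tested. Scaled to nuclear genes alone, 4 members were lower and 2 higher, where 13.1% of 20561 genes were lower and 26.3% higher. Rad21 then had a ratio of 0.801, Stag3 0.761, Smc1b 0.748, Smc1a 0.692 and Smc3 0.768, and the median over all genes was 1.03. Scaled by the median of ratios, 2 members were lower, Smc1a (0.737) and Smc1b (0.797), and Stag3 (0.810), Smc3 (0.818) and Rad21 (0.853) were not, where 8.08% of 18599 genes were lower and 29.5% higher. Against diff. SpG, 7 members were lower and 2 higher, where 41.1% of 18759 genes were lower and 34.7% higher, and Smc1b had the lowest ratio at 0.413.

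Through normal spermatogenesis the ATAC signal of the members varied less than their RNA. On the nuclear scaling the highest of the 9 populations was 1.41 times the lowest for Stag2 and 2.03 times for Stag1, the ends of the range over the 10 genes, against 2.59 (Stag3) to 8.06 (Rec8) times for RNA. Mitochondrial genes held 31.2% of the signal in pL and 63.8% in L/Z/eP, so the direction against undiff. SpG depended on the scaling. In L/Z/eP 7 members were lower and 0 higher, where 82.3% of 17501 genes were lower and 0.811% higher. Scaled to nuclear genes, 1 was lower and 4 higher, where 39.7% of 20389 genes were lower and 23.6% higher.

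In L/Z/eP the 4 genes that were higher on the nuclear scaling were Stag3 (156 against 103 per 1000000), Smc3 (124 against 89.7), Rad21l (40.4 against 29.2) and Smc1b (59.4 against 45.7), and Stag1 was the lower one (19.8 against 28.7). Relative to the median of all genes on the scaling over all genes, these genes stood at 1.62, 1.49, 1.49, 1.39 and 0.739 times. Rad21 stood at 1.01 times and Smc1a at 1.04 times, although the RNA of Rad21 was 3.77-fold lower there.

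In mP/lP 7 members were lower and 0 higher, where 71.6% of 17844 genes were lower and 3.89% higher. Scaled to nuclear genes, Stag1 was lower and Rec8 and Smc3 were higher, where 38.5% of 21069 genes were lower and 28.1% higher. Smc1a and Stag2 stood at 1.26 and 1.16 times the median of all genes in mP/lP while their RNA was at its lowest. In RS, where both scalings give the same counts, Rec8 (42.7 against 23.0), Smc1b (41.8 against 27.1) and Smc3 (84.0 against 53.2) were higher and Stag1 and Rad21l lower, where 27.8% of 19870 genes were higher and 38.6% lower.

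**Figure D5:**
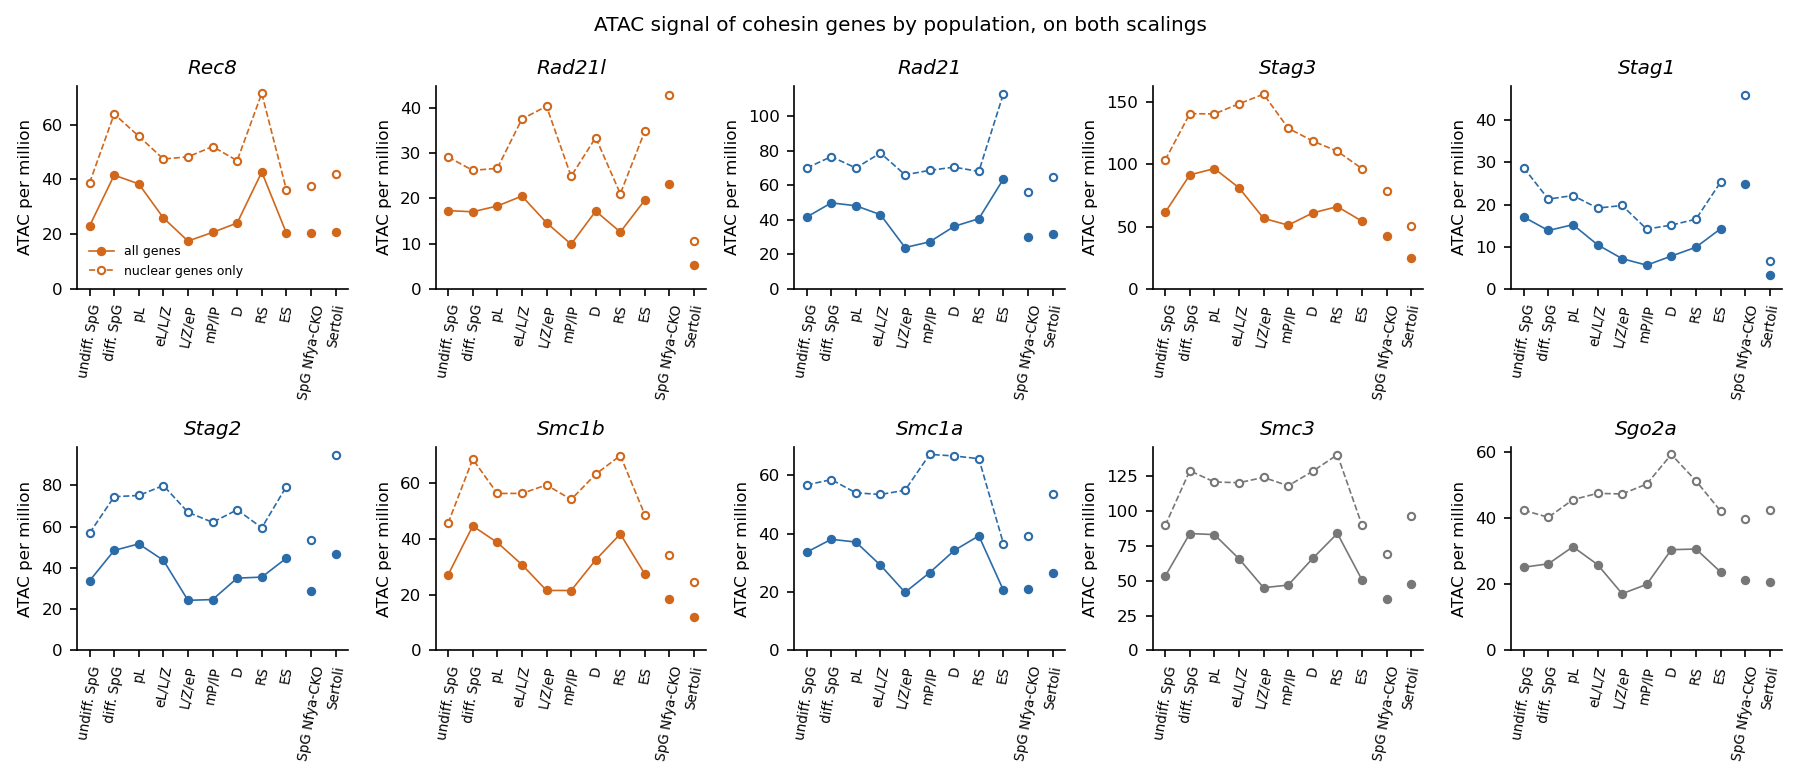
ATAC signal per 1000000 (y axis) of each member in the 9 germ cell populations, Nfya-CKO SpG and Sertoli cells, scaled over all genes (filled) and over nuclear genes only (open). On the nuclear scaling Stag3 was highest in L/Z/eP at 156 and Rec8 in RS at 71.5, and the elongating spermatid values rest on 124 nuclei.

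Across the 9 populations, the ATAC signal and the RNA of Stag3 had a correlation of 0.82 (Pearson's r of log2 values, nuclear scaling). The same coefficient was 0.57 for Smc1b, 0.49 for Rec8, 0.38 for Rad21l, 0.33 for Stag1, 0.23 for Stag2, 0.17 for Smc3, -0.04 for Rad21, -0.11 for Sgo2a and -0.39 for Smc1a. These too rest on 9 points that share libraries.

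Among the members' RNA profiles over the same 9 populations, the mitotic subunits Stag2 and Smc1a were most alike of the mitotic set (r = 0.92), followed by Rad21 and Stag2 (0.92) and Rad21 and Smc1a (0.87). Rad21l was closer to Stag1 (0.95) than to any meiotic subunit, the closest of which was Smc1b (0.67). The highest coefficient of Rec8 was with Stag2 (0.05) and its lowest with Sgo2a (-0.71). All are Pearson's r of log2 levels over 9 points that share libraries, given as descriptions. Beyond the members, the closest of 9248 genes to Stag1 were Esco2, which acetylates SMC3, with r = 0.992, and then Wdr44 and Prim1. The closest gene to Stag3 was Taf1b (0.990), to Smc1b Cbwd1 (0.983), to Rec8 Mprip (0.987) and to Smc3 Phka2 (0.977). Of the 30 genes named by Pearson's r, 3 for each member, 2 were also among the top 3 by Spearman's rho.

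The genes that load, release, acetylate and cleave cohesin were described from a list of 18 regulators. In L/Z/eP against undiff. SpG, 17 passed the filter on low values, 2 were at least 2-fold higher and 1 lower, near or below the 12.8% and 15.2% of all genes. Nipbl, the cohesin loader, was at 10.5 against 4.08 UMIs per 10000, and Meikin, which acts at meiotic kinetochores, at 0.383 against 0.0763. Cdca5, which encodes sororin, was at 0.172 against 0.669. Mean depth was 2038 UMIs per cell in L/Z/eP and 10667 in undiff. SpG. As mean UMIs per cell, Nipbl and Meikin were thus not 2-fold higher, and Nipbl had the opposite direction. Sgo2b was the 1 gene that did not pass.

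In mP/lP against undiff. SpG, 16 passed, 3 were higher and 4 lower, against 15.4% and 23.4% of all genes. The higher ones were Nipbl (9.46 against 4.08), Meikin (0.547 against 0.0763) and Pttg1 (3.59 against 0.996), the last encoding securin, the inhibitor of separase. The lower ones were Esco2, Cdca5, Sgo1 and Hdac8. The releaser Wapl was within 2-fold there, at 3.19 against 3.68, as was the separase gene Espl1, at 0.826 against 0.973. In Nfya-CKO SpG, 0 of 17 regulators were higher or lower in RNA, against 4.76% and 3.40% of all genes. In ATAC 7 of 18 were lower and 2 higher than in undiff. SpG, against 26.0% and 15.4% of all genes. On the nuclear scaling 3 were lower and 2 higher, against 13.1% and 26.3%.

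Relatives of cohesin were counted for comparison. Of 14 genes of condensin and of the SMC5/6 complex, Smc4 and Ncapg were at least 2-fold higher per 10000 UMIs in L/Z/eP than in undiff. SpG and 0 were lower, against 12.8% and 15.2% of all genes. As mean UMIs per cell, at mean depths of 2038 and 10667 UMIs, both had the opposite direction. In mP/lP, per 10000 UMIs, Smc4 was higher (12.4 against 3.51) and Ncapg2 lower, against 15.4% and 23.4% of all genes. Their median log2 difference in mP/lP was 0.00057, against -1.98 for the mitotic cohesin subunits. The 5 synaptonemal complex and HORMA genes Sycp1, Sycp2, Sycp3, Hormad1 and Hormad2 were all higher per 10000 UMIs in both populations, beside the same shares of all genes. Sycp2 was at 20.2 in L/Z/eP against 3.25 in undiff. SpG, and the median log2 difference of the 5 was 2.12, against 0.71 for the meiotic cohesin subunits. Per cell, at the mean depths given above, none of the 5 was 2-fold higher in L/Z/eP, and Sycp1, Sycp3 and Hormad2 were lower.

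Sertoli cells, which do not enter meiosis, gave the level captured for each gene in a somatic population, and 87.8% of them came from 11 dpp. They also held the germ cell transcripts Sycp1 (1.64), Sycp2 (0.756) and Stra8 (0.810), and the share of background RNA in these cells was not tested. There Stag3 was at 0.268, Smc1b between 1.06 and 1.14 (its interval), Rad21l at 0.0105 (0.00715 to 0.0149), Sgo2a at 0.243 and Rec8 at 0.203 (0.187 to 0.220). Stag3, Smc1b and Sgo2a were above their Sertoli level in all 9 germ cell populations, with intervals apart from it. Rad21l was too, except that its interval in ES overlapped. Rec8 was above its Sertoli level in 7 of 9 populations and below it, with intervals apart, in undiff. SpG and mP/lP, and its L/Z/eP interval overlapped that of Sertoli cells. Rad21, at 2.23 in Sertoli cells, was higher there than in all germ cell populations other than undiff. SpG and pL.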

How the data were processed

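Nuclei from testes were captured with BD Rhapsody, and 1 scRNA-seq and 1 scATAC-seq library was made per condition. Per the authors' methods, scRNA-seq reads were aligned to mm10 with STAR 2.7.10b and duplicate UMIs removed, scATAC-seq reads were aligned with BWA 0.7.12 and shifted for the Tn5 cut, and cells with under 500 genes, at least 5% mitochondrial UMIs, under 1000 fragments or a start-site score under 4 were removed, as were called doublets; clusters were named from marker genes with Seurat 5.2.1 and ArchR 1.0.3. The authors deposited, for each of 13 populations, the natural log of 1 plus a mean normalised value per gene, and a table of cells with the UMI count, fragment count and start-site enrichment score of each. The percent of mitochondrial UMIs that the authors deposited per cell, averaged over a population, equalled that of its matrix column, so a column is a mean over the cells listed. Library and population names of the cells came from the same tables. Members and gene lists were chosen with earlier results of these data known.

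Values were converted with exp(value) - 1, which sums to 10000 per population for RNA, and scaled to 1000000 for ATAC, with or without mitochondrial genes. Mean UMIs per cell were derived as the RNA value times the mean UMI count of the population's cells, divided by 10000. They were not counted cell by cell. The 95% Poisson intervals follow from the UMI count of each cell of a population, under the assumption that cells differ by counting alone. RNA differences used a pseudocount of 0.1, a 2-fold threshold and a minimum mean of 0.05, and ATAC ratios a threshold of 0.8 or its inverse and a minimum mean of 5. No test was made, since each condition had 1 library. The genes named were the members, 18 regulators, 14 condensin and SMC5/6 genes, 5 synaptonemal complex and HORMA genes and, for each member, the 3 genes most correlated with it over the 9 germ cell populations among those with a mean of at least 0.2. Other pseudocounts, thresholds, filters, scalings and a control population were tried as alternatives. Promoters were located in RefSeq for GRCm38.p6, the build of mm10, and the starts, ends and lengths of the members' loci also came from RefSeq. Strands, exon lengths and neighbouring genes came from GENCODE for the same build. The scripts, which used Python 3.11.15, numpy 2.4.6, pandas 2.3.3, scipy 1.17.1 and matplotlib 3.10.9, were tested on simulated data.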

Additional observations from a re-analysis of the deposited data

How the results depend on the processing

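No paired analysis was possible because each condition had 1 library, and for the same reason no replicate could be left out. Among values that answer a comparison, 105 alternatives stayed within 1.5 times (counts) or within the 95% interval (other values) and 59 did not; among differences of single genes, 94 stayed within 1.5 times (ATAC) or the interval (RNA), 75 moved and 1 past the threshold reversed: Smc1b in L/Z/eP, from 1.23 to -1.09 as mean UMIs per cell. Of the RNA differences of single genes in L/Z/eP, mP/lP and Nfya-CKO SpG, 14 changed sign under some alternative, 10 of them per cell, among these Stag3 (0.90 to -1.26), Rec8 (0.52 to -0.73) and Stag1 (0.04 to -2.22) in L/Z/eP and Rad21 in Nfya-CKO SpG (-0.70 to 0.16). Unless stated, populations are set against undiff. SpG. For RNA in L/Z/eP, higher meiotic subunits went from 1 to 2 (fold of 1.5, or median of ratios) or 0 (fold of 3, or per cell), lower meiotic ones from 0 to 2 (per cell), and lower mitotic ones from 2 to 1 (pseudocount 0.5, fold of 3, or median of ratios) or 4 (per cell). In mP/lP, higher meiotic subunits went from 0 to 1 (fold of 1.5, or median of ratios), lower meiotic ones from 0 to 1 (pseudocount 0.01) and lower mitotic ones from 4 to 2 (pseudocount 0.5); against pL, lower members went from 5 to 8 (fold of 1.5). In RS, higher members went from 1 to 2 (median of ratios) or 0 (per cell), and lower ones from 3 to 6 (pseudocount 0.01, or fold of 1.5), 1 (pseudocount 0.5, fold of 3, or median of ratios) or 8 (per cell). In the Nfya-CKO spermatogonia, higher members went from 0 to 1 (per cell) and lower ones from 0 to 1 (fold of 1.5, or diff. SpG as control).

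For ATAC in the Nfya-CKO spermatogonia, higher members went from 2 to 0 (fold of 1.5) and lower ones from 5 to 2 (median of ratios), 8 (fold of 1.1) or 1 (fold of 1.5). In L/Z/eP, higher members went from 0 to 4 (nuclear genes) or 3 (median of ratios), and lower ones from 7 to 1 (either) or 3 (fold of 1.5). In mP/lP, higher members went from 0 to 2 (either) and lower ones from 7 to 1 (either) or 3 (fold of 1.5). In RS, higher members went from 3 to 5 (fold of 1.1) and lower ones from 2 to 1 (fold of 1.5).

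With pseudocounts of 0.01 and 0.5, the log2 change of Rec8 to Rad21 was 2.81 and 1.73 in L/Z/eP and 2.57 and 1.81 in mP/lP, that of Stag3 to Stag2 was 2.12 and 1.41 and then 3.60 and 1.92, and in mP/lP that of Rad21l to Rad21 was 1.57 and 1.70 and that of Smc1b to Smc1a 2.64 and 1.34. With 0.5 alone, Rad21l to Rad21 was 1.503, Stag3 to Stag1 0.70 and Smc1b to Smc1a 1.38 in L/Z/eP, and Stag3 to Stag1 was 1.61 in mP/lP. The share of X-linked genes at least 2-fold lower in mP/lP than in pL was 90.6% with a minimum mean of 0.2 and 52.2% after the median of ratios. Shares per kilobase of locus were added after seeing the data. Beyond what the constructions of these alternatives set, the cause was not tested. The levels of Rad21l, and that of Rec8 in Nfya-CKO SpG (0.0740), lie near the pseudocount.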
